A study of Mus musculus with 23 samples.

Results

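The 29 genes described here encode receptors for the transmitter GABA, the enzymes and transporters that handle GABA, and markers of the inhibitory interneurons that release it. They were chosen by gene symbol from a count table of mouse hippocampus, and all 29 of 29 were found among its 37173 genes. They comprise 9 GABA-A receptor subunits, 2 GABA-B receptor subunits, the scaffold gene Gphn, 5 genes of GABA synthesis, transport and breakdown, 8 interneuron class genes and 4 interneuron transcription and lineage genes. Some other subunits and transporters of the pathway were not analysed here, and others enter only through the lists of related genes below. Poly-A RNA was sequenced from 23 samples of both hippocampi of mice aged about 5 months, taken as 1 mouse each. There were 6 wild-type samples (WT), 6 with the genotype P16<KO/KO> (p16KO), 5 with APP<NLGF/NLGF> (AppNLGF) and 6 carrying both genotypes (AppNLGF_p16KO). Homozygous loss of p16, a cyclin-dependent kinase inhibitor encoded by Cdkn2a, was thus crossed with a homozygous App knock-in whose gene carries familial Alzheimer mutations. The labels used here give no strain, sex, agent or deleted exons, and say nothing of which animals were littermates.

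GABA is made from glutamate by glutamate decarboxylases, packed into vesicles, and released onto ionotropic GABA-A receptors, which open a chloride channel, and onto metabotropic GABA-B receptors, which act through G proteins. In the hippocampus it is released by a minority of neurons, the interneurons, whose classes are told apart by peptides and proteins such as somatostatin, parvalbumin, cholecystokinin and neuronal nitric oxide synthase. GABA is cleared into astrocytes and neurons and broken down in mitochondria.

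The promoters of 5 of these genes are shown because the results turn on them: Nos1 and Cck passed the test for loss of p16, and the library-to-library levels of Gabbr2 followed Nos1 while Npy and Cck followed Sst. Each window holds 250 bases before the annotated start and 50 after it (RefSeq, build GRCm38.p6), written 5′ to 3′ on the strand of the gene. They lie at chr16:23890795-23891094 (Sst, minus strand), chr6:49822460-49822759 (Npy, plus strand), chr9:121495645-121495944 (Cck, minus strand), chr5:117866589-117866888 (Nos1, plus strand) and chr4:46991665-46991964 (Gabbr2, minus strand). Capitals mark matches to 5 motifs searched on both strands.
Sst: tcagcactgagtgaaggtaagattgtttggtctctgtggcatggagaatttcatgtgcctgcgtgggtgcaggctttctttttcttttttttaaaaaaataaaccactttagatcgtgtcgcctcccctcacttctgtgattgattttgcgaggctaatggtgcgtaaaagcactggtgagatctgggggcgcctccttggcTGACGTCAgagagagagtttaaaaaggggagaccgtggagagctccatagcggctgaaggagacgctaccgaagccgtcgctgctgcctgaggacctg
Npy: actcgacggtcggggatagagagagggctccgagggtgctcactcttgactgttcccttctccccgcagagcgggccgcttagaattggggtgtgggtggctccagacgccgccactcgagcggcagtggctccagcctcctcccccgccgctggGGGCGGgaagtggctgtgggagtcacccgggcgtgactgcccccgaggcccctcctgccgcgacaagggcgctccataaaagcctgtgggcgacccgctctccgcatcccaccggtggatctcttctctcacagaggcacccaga
Cck: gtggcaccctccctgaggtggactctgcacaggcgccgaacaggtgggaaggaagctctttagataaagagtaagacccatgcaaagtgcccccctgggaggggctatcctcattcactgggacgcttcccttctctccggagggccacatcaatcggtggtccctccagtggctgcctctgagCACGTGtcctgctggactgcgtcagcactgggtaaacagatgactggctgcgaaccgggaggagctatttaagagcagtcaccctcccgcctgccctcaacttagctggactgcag
Nos1: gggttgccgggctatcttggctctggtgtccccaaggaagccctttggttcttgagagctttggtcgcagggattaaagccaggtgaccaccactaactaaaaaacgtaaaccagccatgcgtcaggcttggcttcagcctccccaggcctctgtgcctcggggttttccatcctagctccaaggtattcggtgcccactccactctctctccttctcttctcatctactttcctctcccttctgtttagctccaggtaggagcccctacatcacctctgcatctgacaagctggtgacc
Gabbr2: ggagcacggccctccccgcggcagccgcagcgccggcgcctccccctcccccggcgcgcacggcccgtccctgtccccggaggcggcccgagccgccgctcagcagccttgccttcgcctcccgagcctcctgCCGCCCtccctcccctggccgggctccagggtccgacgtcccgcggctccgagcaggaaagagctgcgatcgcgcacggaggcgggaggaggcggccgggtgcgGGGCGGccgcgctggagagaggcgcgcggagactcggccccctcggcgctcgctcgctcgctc
In the Sst window the full cyclic AMP response element TGACGTCA began 48 bases before the start. This motif was in 1.79% of 32851 promoter windows of the same length, and among the 27 genes of the set that had a window it was found in Sst alone. The GC box GGGCGG, present in 35.7% of all windows, began 95 bases before the start of Npy and 13 bases before that of Gabbr2, and a further Gabbr2 match on the opposite strand began at 117 bases. The E-box CACGTG, in 7.15% of all windows, began 66 bases before the start of Cck. The other motifs searched were TATAAA (13.6% of windows) and CAGCTG (16.3%), and none of the 5 was in the Nos1 window. No 2 of these matches overlapped. The Nos1 window lies inside the interval that the count table's annotation gives for this gene (chromosome 5, 117781032 to 117958840), so it is the start of 1 annotated transcript. A match is a description of letters and not of a bound site.

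Library totals ran from 40.7e6 to 61.2e6 counts (median 55.1e6), and the counts of these 29 genes in single libraries ran from 174 for Dlx2 to 58950 for Gabbr1. A filter on low counts kept 19423 genes, with all 29 among them. Cdkn2a was near the floor of detection, with 17 reads over the 6 WT libraries, 4 over p16KO, 25 over AppNLGF and 24 over AppNLGF_p16KO. These reads cover all products of the gene and the deleted part is not given, so they do not check the p16 labels. Group names are used below as the labels give them. Hippocampal markers were present in every library, with summed levels of 796 to 996 counts per 1e6 (CPM) for 10 genes of CA1, CA2 and CA3 pyramidal cells and 195 to 400 CPM for 8 genes of dentate granule cells. Markers of neighbouring tissue varied between libraries: 10 choroid plexus genes summed to 136 to 5871 CPM, 8 striatal genes to 97.0 to 339 CPM and 4 septal genes to 21.8 to 101 CPM. The submitters' distance check for outliers was rebuilt here over 5 principal components. The library AppNLGF_p16KO 21 lay past its limit (squared distance 12.4, limit 11.1), and p16KO 7 lay just inside it at 11.0. The values of Nos1, Cck, Gabbr2, Gabrb1, Slc32a1, Slc6a11 and Pvalb are given with and without AppNLGF_p16KO 21.

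In WT hippocampus the peptide genes Sst and Cck stood at the top of the set (levels in CPM per kb of merged exons, mean ± SD, n = 6). Sst, which encodes somatostatin, was at 243.5 ± 11.7, and Cck, which encodes cholecystokinin, was at 206 ± 13.1. Gabbr1, the GABA-B subunit that binds GABA, followed at 119 ± 5.46. Next came Gabra5, the alpha subunit of extrasynaptic receptors in pyramidal cells, at 85.0 ± 5.36, and Npy, the gene of neuropeptide Y, at 62.6 ± 3.37. Each of these 5 was separated from the next lower gene in every WT library. From Gad1, at 49.6 ± 2.88, down to Gabrd, at 11.0 ± 2.18, the WT libraries of neighbouring genes overlapped at every step. Of 28 neighbouring pairs, 6 did not overlap, the last being Gabrd over Vip. Vip, also a peptide gene, was at 7.00 ± 0.905. The alpha subunits Gabra3 and Gabra4 were at 27.0 ± 2.40 and 24.2 ± 1.16, close to Gabrb2 at 24.7 ± 0.935, and Gabra2 was at 18.0 ± 3.02. Gabrg1 (4.36 ± 0.637) and Gabrg3 (3.02 ± 0.259), both gamma subunits, were the lowest receptor genes. The lowest levels of all belonged to Adarb2, a gene of interneurons of caudal origin, at 2.35 ± 0.561 and to the homeobox gene Dlx2 at 1.56 ± 0.192. The order depends on the length used. With the median transcript length of the deposited table in place of merged exons, an alternative added after the data were seen, Gabbr1 ranked 1, Cck 2, Sst 4 and Npy 12, while Dlx2 again ranked 29.

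**Figure D1:**
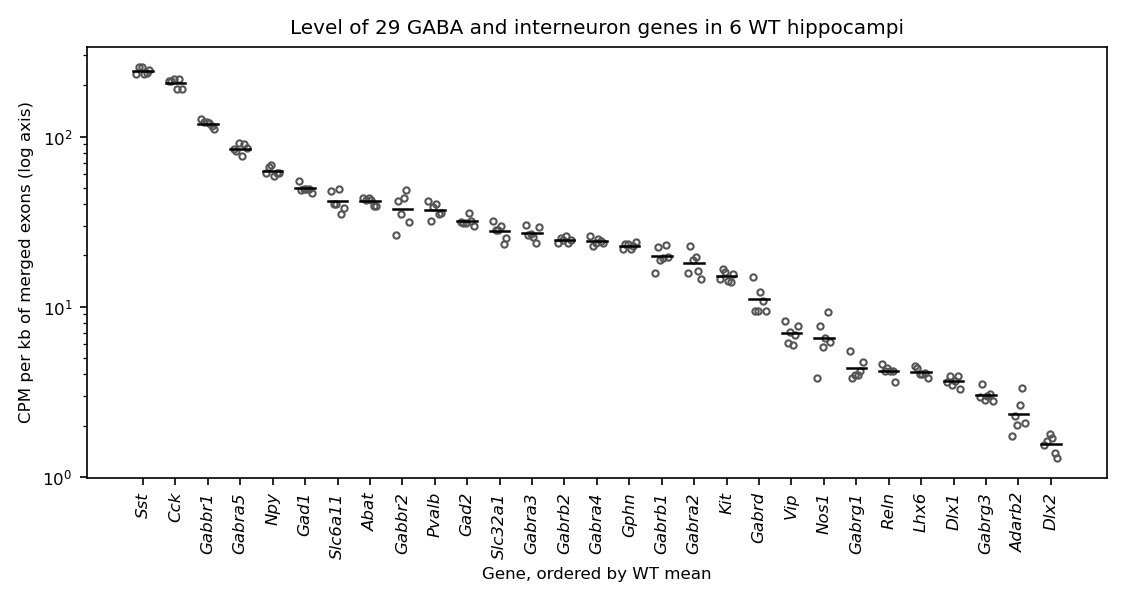
Level of each of the 29 genes in the 6 WT libraries, in CPM per kb of merged exons on a log axis, with a circle for each library and a bar for the mean. Sst and Cck stand above 200 and Dlx2 is lowest at 1.56.

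Variation between animals of the same genotype differed from gene to gene. The median over the genes of the within-group coefficient of variation was 9.82%, beside 11.9% for all 19423 genes tested, which were not matched for level. Abat (4.34%), Gabbr1 (4.71%) and Gphn (4.80%) were the steadiest. Pvalb (24.4%), Gabra2 (22.7%), Nos1 (22.2%) and Adarb2 (20.1%) varied most.

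Few of these genes were called between genotypes, and calls were also rare among all genes where groups were compared directly. A lack of calls is not a lack of change. By edgeR's quasi-likelihood F test, with Benjamini-Hochberg adjustment over all 19423 genes and a threshold of 0.05, 0 of 29 passed in p16KO minus WT, where 0.309% of all genes did. Likewise 0 of 29 passed in AppNLGF minus WT (0.319% of all genes), in AppNLGF_p16KO minus AppNLGF (0.0309%) and in AppNLGF_p16KO minus p16KO (0.247%). Unadjusted p was under 0.05 for 6, 5, 5 and 3 of the 29 genes in these comparisons, or 20.7%, 17.2%, 17.2% and 10.3%, beside 15.8%, 8.54%, 23.5% and 7.89% of all genes. DESeq2 also called 0 of 29 in each. The first and second comparisons share the WT libraries. The median absolute log2 difference of the set was 0.08, 0.07, 0.09 and 0.05, against 0.12, 0.09, 0.14 and 0.09 over all genes, and the median signed difference was -0.04, -0.03, 0.07 and 0.01. The 95% interval of the difference lay within 0.5 either way on the log2 scale for 26, 26, 22 and 27 of the 29 genes, so larger changes fell outside the intervals of most of them. The interaction, the difference between the p16 effects on the AppNLGF and WT backgrounds, was called for 0 of 29 genes and for 0.0% of all genes, with 2 of 29 at an unadjusted p under 0.05, and DESeq2 called 0 of 29.

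**Figure D2:**
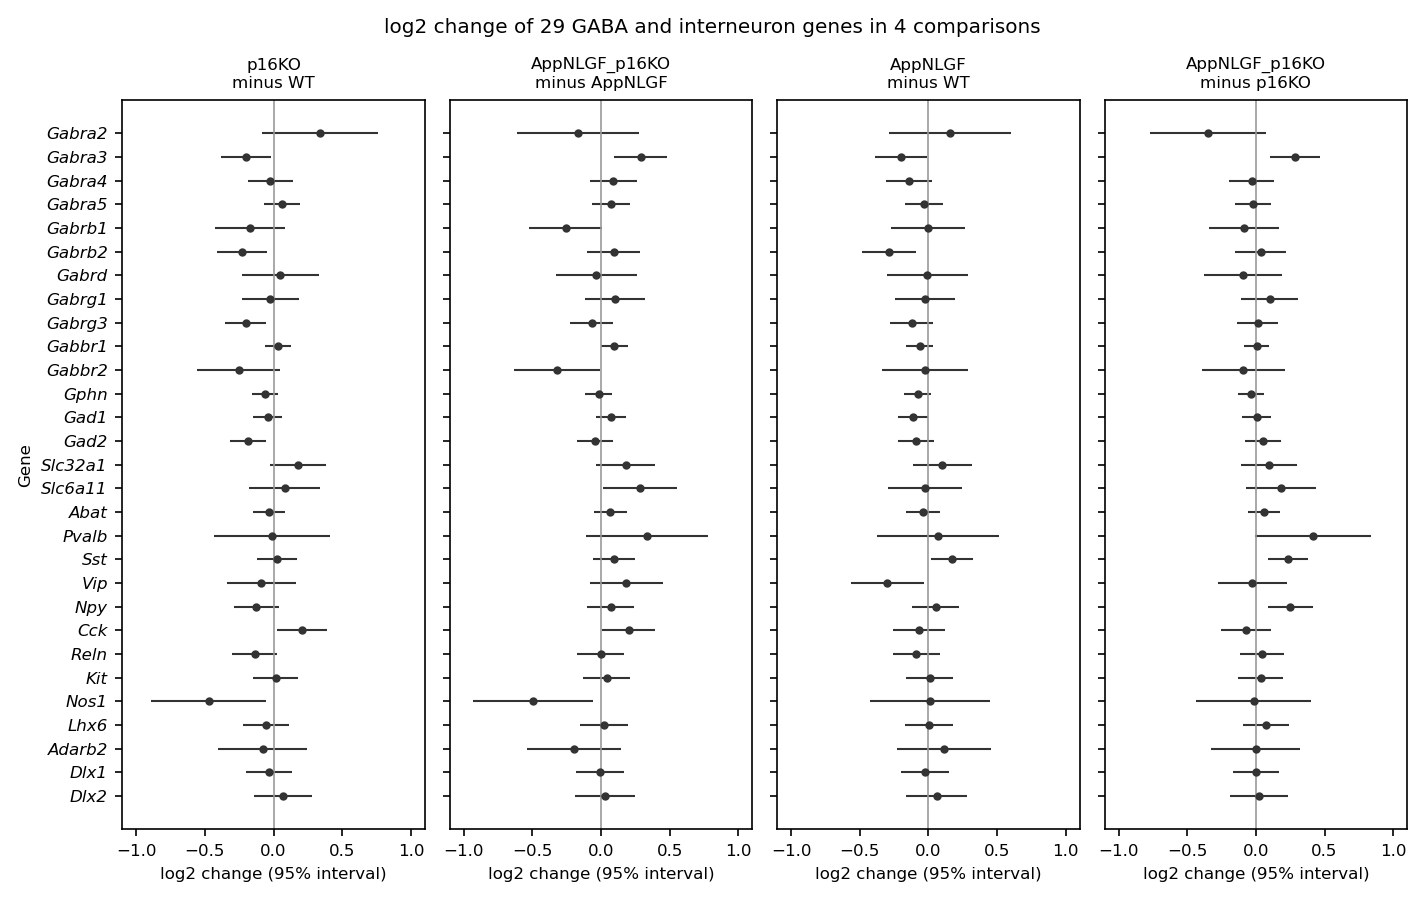
log2 difference (point) and 95% interval (line) of each of the 29 genes in the 4 comparisons between genotypes that differ in 1 locus. The points lie between -0.50 and 0.41, and 0 of 29 genes passed the adjusted threshold in any panel.

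The only calls came from contrasts that average a factor over both backgrounds. The average p16 effect, the mean of p16KO minus WT and AppNLGF_p16KO minus AppNLGF on the log2 scale, was called for 2 of 29 genes (6.90%), where 13.0% of all genes passed. Nos1 fell and Cck rose; 7.66% of all genes passed upward and 5.32% downward. The share in the set was thus below that among all genes, and 7 of 29 had an unadjusted p under 0.05 (24.1%) beside 31.0% of all genes. The average App effect was called for 0 of 29 genes by edgeR, beside 0.793% of all genes, with 2 of 29 at an unadjusted p under 0.05. DESeq2 called Sst in it, with 1.47% of all genes, and called Nos1, Cck and Gabbr2 in the average p16 effect, with 17.4% of all genes. In bulk tissue, fewer cells of a type and less RNA per cell cannot be told apart.

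Nos1 (ENSMUSG00000029361) encodes neuronal nitric oxide synthase, which marks neurogliaform and other interneurons and is also made by pyramidal cells. WT libraries ran from 42.7 to 103 CPM with a median of 71.1, and p16KO libraries from 45.6 to 62.3 with a median of 50.5. The 5 AppNLGF libraries held 63.4, 62.3, 83.7, 89.0 and 69.2 CPM, and the AppNLGF_p16KO libraries ran from 36.9 to 84.6 with a median of 45.1. On both backgrounds the p16-deficient group was lower in most animals, but the groups overlapped: WT 1 was at 42.7 and AppNLGF_p16KO 23 at 84.6. The log2 difference was -0.47 ± 0.20 (SE) in p16KO minus WT (adjusted p = 0.259) and -0.50 ± 0.21 in AppNLGF_p16KO minus AppNLGF (adjusted p = 0.165). The average p16 effect was -0.48 ± 0.14 (adjusted p = 0.0353), with 11 of 12 p16-deficient libraries below the mean of the other 11. Over alternative settings the adjusted p ran from 0.00311 to 0.0792; leaving out 1 library kept the call in 11 of 23 fits. Without AppNLGF_p16KO 21 the effect was -0.45 (adjusted p = 0.0647).

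Cck (ENSMUSG00000032532, chromosome 9, 121489824 to 121495694) marks a class of basket cells and is also expressed by pyramidal cells. Its levels ran from 247 to 286 CPM in WT (median 276) and from 262 to 342 in p16KO (median 310). The AppNLGF libraries held 254, 296, 255, 232 and 246 CPM, and the AppNLGF_p16KO libraries ran from 240 to 397 with a median of 283. The p16-deficient groups were higher on both backgrounds and overlapped their controls. The log2 difference was 0.20 ± 0.09 in p16KO minus WT (adjusted p = 0.260) and 0.20 ± 0.09 in AppNLGF_p16KO minus AppNLGF (adjusted p = 0.196). The average was 0.20 ± 0.06 (adjusted p = 0.0395), with 10 of 12 libraries above the mean of the other 11. The call held in 6 of 23 fits that left out 1 library, and the adjusted p over all alternatives ran from 0.0182 to 0.114. Without AppNLGF_p16KO 21 it was 0.20 (adjusted p = 0.0622) and without AppNLGF_p16KO 22, the highest library, 0.15 (adjusted p = 0.0557).

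Other measures were compared between the p16 genotypes beside these calls. One was the median log2 deviation of the 25% of genes with the longest transcripts minus that of the 25% with the shortest, relative to the mean of all libraries. It ran from 0.003 to 0.117 in WT and from -0.021 to 0.095 in AppNLGF, but from -0.075 to 0.022 in p16KO and from -0.148 to 0.035 in AppNLGF_p16KO. The median transcript length in the deposited table is 4388 bases for Nos1, 1303.5 for Gabbr2 and 584.5 for Cck. Their merged exons hold 11151, 6686 and 1305 bases. Both the measure and the removal of length trends used the median transcript length. With length and GC trends removed from each library, 13.6% of all genes were called for the average p16 effect. In that fit Nos1 was at -0.43 (adjusted p = 0.0297) and Cck at 0.13 (adjusted p = 0.114). The summed level of 8 neocortical markers was 199.9 to 233 CPM over WT libraries, 184 to 204 over p16KO, 189.5 to 212 over AppNLGF and 176 to 223 over AppNLGF_p16KO. Of the 8, 0 were positive in p16KO minus WT (median -0.17) and 4 in AppNLGF_p16KO minus AppNLGF (median 0.002). For the average p16 effect 0 of 8 was called and 6 of 8 were negative. Among 10 pyramidal markers 1, Mpped1, rose (0.13 ± 0.04, adjusted p = 0.0263), where 13.0% of all genes passed. The pyramidal sum was 796 to 894 CPM over WT libraries, 844 to 947 over p16KO, 821 to 946 over AppNLGF and 879.9 to 996 over AppNLGF_p16KO, so all groups overlapped. Of 7 microglial markers 2 rose, C1qa by 0.21 (adjusted p = 0.0265) and Tmem119 by 0.21 (adjusted p = 0.0289), and their sum was 291 to 322 CPM over WT libraries, 313 to 342 over p16KO, 356 to 422 over AppNLGF and 381 to 435 over AppNLGF_p16KO. Of 6 endothelial markers 1, Flt1, was called and fell (-0.27, adjusted p = 0.0157), while 3 of the 6 were positive (median 0.03). Of 4 markers of oligodendrocyte precursors 1, Neu4, was called and rose (0.18, adjusted p = 0.0386). It was the only positive marker of that list (median -0.04). The marker lists of astrocytes, oligodendrocytes, dentate granule cells, striatum, thalamus, septum and choroid plexus gave 0 calls in this contrast. The part of neighbouring tissue and of these cell types in the Nos1 and Cck results was not tested.

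Among the GABA-A receptor genes, Gabrb2, a beta subunit of the most common synaptic receptor, had the clearest separation from WT. WT libraries ran from 150.4 to 165 CPM (median 157), p16KO from 112 to 150.1 (median 135) and AppNLGF_p16KO from 101 to 168 (median 134). The AppNLGF libraries held 126, 130, 111, 132 and 145 CPM. All p16KO and all AppNLGF libraries lay below the lowest WT library, while AppNLGF_p16KO overlapped every group. Gabrb2 was the 1 gene of 29 without overlap in p16KO minus WT, where 1.81% of all genes did not overlap. In AppNLGF minus WT it was 1 of 2 such genes, the other being Sst, beside 1.88% of all genes. The log2 difference was -0.23 ± 0.09 (adjusted p = 0.210) in the former and -0.29 ± 0.09 (adjusted p = 0.326) in the latter, and neither passed. Because these comparisons share the WT libraries, the narrow WT range enters both. For AppNLGF_p16KO minus AppNLGF and minus p16KO, 0 of 29 genes were without overlap, beside 1.13% and 0.463% of all genes.

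Gabra3, an alpha subunit gene on the X chromosome, had lower means in both single mutants than in WT or in the animals with both genotypes. WT libraries ran from 92.9 to 118 CPM (median 104), p16KO from 81.4 to 108 (median 89.0) and AppNLGF_p16KO from 95.6 to 135 (median 106). The AppNLGF libraries held 97.9, 80.7, 87.8, 87.5 and 107 CPM. All groups overlapped. The log2 difference was -0.20 ± 0.09 in p16KO minus WT and -0.20 ± 0.09 in AppNLGF minus WT, then 0.29 ± 0.09 in AppNLGF_p16KO minus AppNLGF (adjusted p = 0.113) and 0.29 ± 0.09 in AppNLGF_p16KO minus p16KO (adjusted p = 0.310). Its interaction of 0.49 ± 0.13 had the smallest p of the set (unadjusted p = 0.000814) and did not pass adjustment over all genes (adjusted p = 0.897). Gabrb2 had the other interaction with an unadjusted p under 0.05 (0.32 ± 0.13, adjusted p = 0.897).

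Gabrg3, a gamma subunit, ran from 33.3 to 41.9 CPM in WT (median 35.4) and from 29.6 to 35.9 in p16KO (median 30.1). It was at 35.0, 29.6, 31.5, 32.1 and 37.3 CPM in AppNLGF and ran from 25.9 to 35.2 in AppNLGF_p16KO (median 32.2). In p16KO every library was below the WT mean, though the ranges overlapped (log2 difference -0.20 ± 0.07, adjusted p = 0.167), and the average p16 effect was -0.14 ± 0.05 (adjusted p = 0.0818). Gabra2 was the most variable receptor subunit: p16KO was at 173 ± 27.6 CPM (SD, n = 6) and WT at 137 ± 23.1 (n = 6). The difference of 0.34 ± 0.20 did not pass (adjusted p = 0.422), and its 95% interval ran from -0.09 to 0.76. The counterpart in AppNLGF_p16KO minus AppNLGF was -0.17 ± 0.21 (adjusted p = 0.660). Gabrb1 had lower means in the p16-deficient groups, with an average effect of -0.21 ± 0.09 (adjusted p = 0.107), or -0.17 (adjusted p = 0.154) without AppNLGF_p16KO 21. The remaining subunits differed by at most 0.14 on the log2 scale in any of the 4 comparisons: Gabra4 and Gabrg1, Gabra5, and Gabrd, the delta subunit of extrasynaptic receptors on granule cells.

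Genes that neighbour each other in the genome had differences of either sign. Gabrg1, Gabra2, Gabra4 and Gabrb1 form a cluster on chromosome 5, and Gabra4 and Gabrb1 overlap by 196 bases at their starts on opposite strands. In p16KO minus WT, Gabra2 had a difference of 0.34 and Gabrb1 of -0.17, while Gabra4 and Gabrg1 were at -0.02 and -0.03. Gabrg3 and Gabra5, 20483 bases apart on chromosome 7, had differences of -0.20 and 0.06. Libraries were stranded, so reads of Gabra4 and Gabrb1 could be told apart by strand where the counting used it. Gabbr2 and Gabrd lie on chromosome 4, which also carries Cdkn2a.

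The GABA-B receptor works as a pair of subunits, Gabbr1, which binds GABA, and Gabbr2, which couples to the G protein. Gabbr1 was steady: 926 ± 42.4 CPM in WT (n = 6), 945 ± 33.6 in p16KO (n = 6), 887 ± 43.0 in AppNLGF (n = 5) and 948 ± 46.9 in AppNLGF_p16KO (n = 6), with an average p16 effect of 0.06 ± 0.03 (adjusted p = 0.197). Gabbr2 (ENSMUSG00000039809, chromosome 4, 46662305 to 46991873) varied far more. Its levels ran from 175 to 325 CPM in WT (median 257), from 199 to 229 in p16KO (median 210) and from 142 to 292 in AppNLGF_p16KO (median 182), with 224, 229, 243, 284 and 262 CPM in AppNLGF. The 6 p16KO libraries were closely spaced inside the wide WT range. The log2 difference was -0.25 ± 0.14 in p16KO minus WT (adjusted p = 0.391) and -0.32 ± 0.15 in AppNLGF_p16KO minus AppNLGF (adjusted p = 0.203). The average p16 effect of -0.29 ± 0.10 just missed the threshold (adjusted p = 0.0679), with 11 of 12 libraries below the mean of the other 11. It passed with length and GC trends removed (-0.33, adjusted p = 0.0431) and by DESeq2, in 4 of 32 alternatives in all and in 2 of 23 fits that left out 1 library. The length removal took Gabbr2 at its median transcript length of 1303.5 bases and not at the 6686 bases of its merged exons. Over all alternatives the adjusted p ran from 0.00571 to 0.151, and without AppNLGF_p16KO 21 the effect was -0.25 (adjusted p = 0.117). Gphn, the gene of gephyrin that anchors GABA-A receptors at synapses, was at 85.8 ± 3.33 CPM in WT and differed by at most 0.08 in any of the 4 comparisons.

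Leaving out AppNLGF_p16KO 23 changed the count in AppNLGF_p16KO minus AppNLGF from 0 to 3 of 29 genes, with Nos1 (-0.69, adjusted p = 0.0151), Gabbr2 (-0.47, adjusted p = 0.0170) and Gabra3 (0.33, adjusted p = 0.0157) past the threshold. In that fit 21.5% of all genes were called, against 0.0309% with the library. Its Nos1 and Gabbr2 levels of 84.6 and 292 CPM were the highest of its group.

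Of the genes that make GABA, Gad2 had a larger difference in p16KO than Gad1, and neither passed. Gad2, the decarboxylase of nerve terminals, ran from 176 to 208 CPM in WT (median 183) and from 147 to 181 in p16KO (median 163). The AppNLGF libraries held 155, 173, 176, 178 and 195 CPM, and AppNLGF_p16KO ran from 149 to 181 (median 172). Every p16KO library was below the WT mean, and the ranges overlapped. The difference of -0.19 ± 0.06 had the smallest p of the set in p16KO minus WT and did not pass (adjusted p = 0.145), and that in AppNLGF_p16KO minus AppNLGF was -0.04 ± 0.07 (adjusted p = 0.719). Averaged over both backgrounds Gad2 was at -0.11 ± 0.05 (adjusted p = 0.0861), with 12 of 12 libraries below the mean of the other 11. That mean pools WT with AppNLGF. Against the AppNLGF mean alone (175 CPM), AppNLGF_p16KO 19 and 22 were higher, at 181 CPM each. Gad1, the decarboxylase that makes most of the GABA in the brain, was at 379 ± 22.0 CPM in WT and 368 ± 17.7 in p16KO (-0.04 ± 0.05, adjusted p = 0.706), and at 351 ± 25.5 in AppNLGF (-0.11 ± 0.05 against WT, adjusted p = 0.584).

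Slc32a1, the vesicular GABA transporter, was higher in p16KO than the WT mean in 6 of 6 libraries (88.4 ± 4.01 against 78.0 ± 8.60 CPM), and its average p16 effect was 0.18 ± 0.07 (adjusted p = 0.0903), or 0.12 (adjusted p = 0.146) without AppNLGF_p16KO 21. Slc6a11 encodes the GABA transporter GAT-3 of astrocytes. It was at 211 ± 28.7 CPM in WT, 223 ± 12.6 in p16KO, 208 ± 12.9 in AppNLGF and 253 ± 75.5 in AppNLGF_p16KO, the last with 1 library at 405. Without that library, AppNLGF_p16KO 21, the group was at 222 ± 13.3 CPM (n = 5), and the difference from AppNLGF was 0.10 (adjusted p = 0.513) in place of 0.28 ± 0.13 (adjusted p = 0.193). Abat, the transaminase that starts GABA breakdown, was at 323 ± 16.0 CPM in WT and differed by at most 0.07 in the 4 comparisons.

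The interneuron class genes other than Cck and Nos1 gave no call, and Sst came nearest in the App contrasts. Sst (ENSMUSG00000004366, chromosome 16, 23889573 to 23890958) marks dendrite-targeting interneurons, among them the oriens-lacunosum moleculare cells. WT libraries ran from 167 to 186 CPM (median 173) and p16KO libraries from 146 to 198 (median 183). The AppNLGF libraries held 199.7, 204, 209, 186 and 189 CPM, and the AppNLGF_p16KO libraries ran from 186 to 259 (median 204). Each AppNLGF library was above the highest WT library, by a small margin for the lowest, and AppNLGF_p16KO overlapped p16KO. The difference was 0.17 ± 0.07 in AppNLGF minus WT (adjusted p = 0.537) and 0.23 ± 0.07 in AppNLGF_p16KO minus p16KO (adjusted p = 0.291). The average App effect was 0.20 ± 0.05 (unadjusted p = 0.000548, adjusted p = 0.0616), with 11 of 11 libraries above the mean of the other 12. Over alternatives the adjusted p ran from 0.0216 to 0.138, and it passed in 6 of 32 of them, DESeq2 among these. Of the 23 fits that left out 1 library, 3 gave the call.

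Npy (ENSMUSG00000029819, chromosome 6, 49822710 to 49829507), whose peptide is made by many Sst cells, had a smaller average App effect than Sst, and neither passed. It ran from 33.3 to 38.3 CPM in WT (median 34.6) and from 27.0 to 36.7 in p16KO (median 33.2). The AppNLGF libraries held 33.1, 39.9, 38.6, 35.5 and 36.6 CPM, and AppNLGF_p16KO ran from 33.5 to 47.5 (median 36.8). All groups overlapped. The difference was 0.05 ± 0.08 in AppNLGF minus WT (adjusted p = 0.926), 0.25 ± 0.08 in AppNLGF_p16KO minus p16KO (adjusted p = 0.341) and 0.15 ± 0.06 on average (adjusted p = 0.316). The striatum also holds cells with Sst, Npy and Nos1. The 8 striatal markers summed to 97.0 to 266 CPM over WT libraries, 98.2 to 339 over p16KO, 129.8 to 246 over AppNLGF and 111 to 187 over AppNLGF_p16KO, with 0 of 8 called and 7 of 8 positive in the average App effect. Of the 8, 8 were positive in AppNLGF minus WT (median 0.14) and 4 in AppNLGF_p16KO minus p16KO (median -0.02). The highest striatal sum was in p16KO 7, which had the lowest Sst (146 CPM) and Npy (27.0 CPM) of its group. The part of striatal tissue in the Sst and Npy values was not tested.

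Vip marks interneurons that target other interneurons. It ran from 20.2 to 28.1 CPM in WT (median 23.7) and held 18.0, 21.2, 14.3, 17.0 and 26.5 CPM in AppNLGF. Of the 5 AppNLGF libraries 4 were below the WT mean and 1 above it, and the difference of -0.30 ± 0.13 did not pass (adjusted p = 0.535). The difference was -0.03 ± 0.12 in AppNLGF_p16KO minus p16KO (adjusted p = 0.966). Pvalb, the marker of fast-spiking basket cells, was at 38.7 ± 3.89 CPM in WT, 38.4 ± 5.61 in p16KO, 40.6 ± 16.5 in AppNLGF and 51.2 ± 17.5 in AppNLGF_p16KO. Its spread in the AppNLGF groups came from 1 library in each, described below. Its intervals were among the widest of the set: the difference in AppNLGF_p16KO minus p16KO was 0.41 ± 0.20, from -0.01 to 0.84 (adjusted p = 0.652), and 0.21 without AppNLGF_p16KO 21 (adjusted p = 1.00).

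Reln, the secreted glycoprotein gene of Cajal-Retzius and neurogliaform cells, was at 99.6 ± 8.00 CPM in WT and differed by at most 0.14 in the 4 comparisons. Kit, a receptor tyrosine kinase gene, was at 135 ± 9.83 CPM in WT and differed by at most 0.04. Of the lineage genes, Lhx6, of interneurons born in the medial ganglionic eminence, was at 19.9 ± 1.2, 19.2 ± 0.893, 19.9 ± 2.00 and 20.2 ± 3.14 CPM in WT, p16KO, AppNLGF and AppNLGF_p16KO. Dlx1 and Dlx2, homeobox genes of forebrain GABA neurons, were at 19.6 ± 1.31 and 4.44 ± 0.548 CPM in WT, and each differed by at most 0.07 in the 4 comparisons. Adarb2, with Vip a gene of interneurons of caudal origin, had a difference of -0.19 ± 0.16 in AppNLGF_p16KO minus AppNLGF (adjusted p = 0.487) and at most 0.11 elsewhere. The 95% interval of the average p16 effect on Lhx6 ran from -0.14 to 0.10 on the log2 scale, and that of the average App effect from -0.08 to 0.16.

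**Figure D3:**
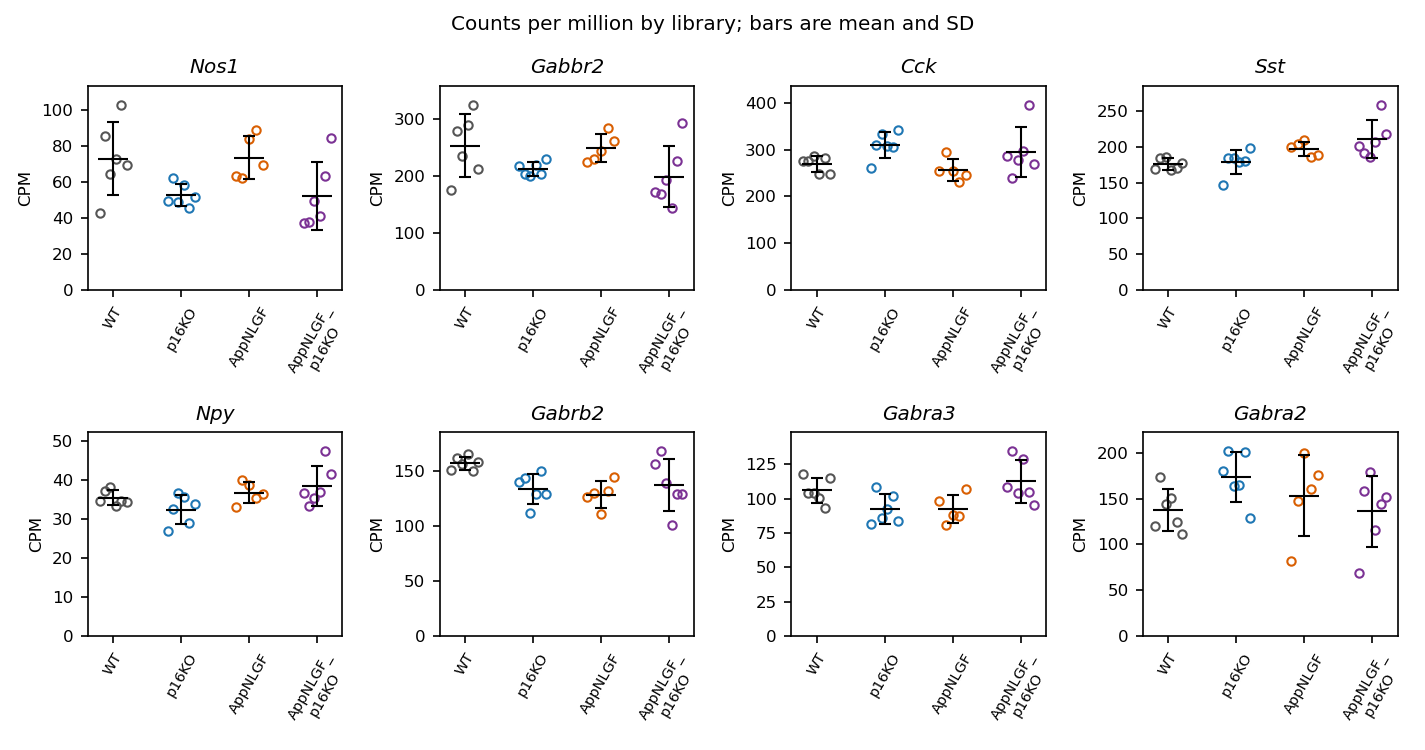
CPM of 8 genes in each library by genotype, each panel from 0, with a circle for each library and a bar for the mean and SD (n = 6, 6, 5 and 6). Nos1 and Gabbr2 are lower and Cck higher in most p16-deficient libraries, Sst is higher in the AppNLGF groups, and Gabrb2 has its highest mean in WT with AppNLGF_p16KO overlapping all groups.

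Some of these genes varied together between animals of the same genotype. Deviations of log2 levels from the group mean were correlated over the 23 libraries, with a permutation test within groups of 100000 resamples. Of 9 pairs chosen by shared class, complex or gene cluster, 1 passed adjustment over the 9. Sst and Npy, co-expressed in dendrite-targeting cells, had r = 0.82 (permutation p = 9e-05, adjusted p = 0.00081) and Spearman's rho = 0.73 (permutation p = 0.00042, adjusted p = 0.00378). Without p16KO 7 and AppNLGF_p16KO 22, the libraries farthest from the median of Sst, r was 0.61. Gad1 and Gad2 had r = 0.34 and rho = 0.40 (adjusted p = 0.320 and 0.288 by permutation). Lhx6 and Sst had r = 0.47, which fell to 0.04 without AppNLGF_p16KO 22 and 23. The other 6 pairs had r between -0.46 (Lhx6 and Pvalb) and 0.21 (Gabra2 and Gabrb1), none past the threshold; Dlx1 and Dlx2, 9426 bases apart on chromosome 2, had r = 0.17.

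Over all 406 pairs of the 29 genes, looked at after the data were seen, 9 passed adjustment over the 406, of which 7 were positive and 2 negative. Gabbr2 and Nos1, whose promoters are printed above, had the highest: r = 0.88 (permutation p = 4e-05, adjusted p = 0.0162) and rho = 0.86 (permutation p = 7e-05, adjusted p = 0.0284). It was 0.73 without AppNLGF_p16KO 23 and WT 1, which were high and low in both genes. Cck followed Sst (r = 0.80, rho = 0.70, adjusted p = 0.0396 and 0.111 by permutation) and Npy (r = 0.76, rho = 0.67, adjusted p = 0.0357 and 0.119). Without p16KO 7 and AppNLGF_p16KO 22 these were 0.48 and 0.51. Slc32a1 and Slc6a11 had r = 0.85 and rho = 0.67 (adjusted p = 0.0357 and 0.144 by permutation), and r was 0.68 without AppNLGF_p16KO 21 and AppNLGF 17. The measure of long against short transcripts was at its highest of all libraries (0.117) in WT 5, where Nos1 and Gabbr2 had their highest level, and at its lowest (-0.148) in AppNLGF_p16KO 21, where Gabbr2 had its lowest. It was second lowest (-0.084) in AppNLGF_p16KO 22, where Nos1 (63.3 CPM) and Gabbr2 (226 CPM) were the second highest of their group. Its part in their shared variation was not tested.

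**Figure D4:**
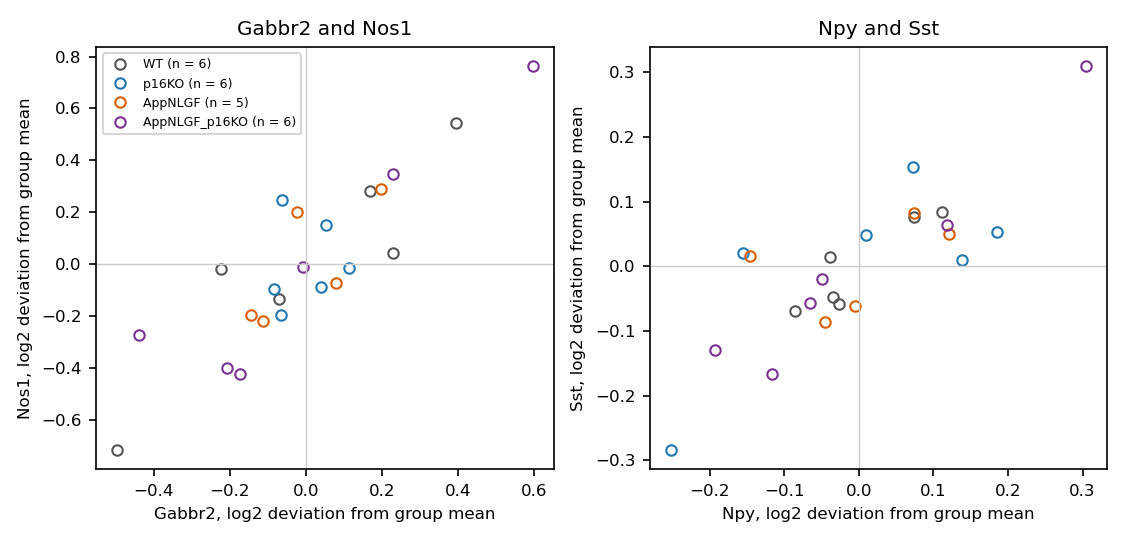
log2 deviation from the group mean in each of the 23 libraries, for Nos1 against Gabbr2 and for Sst against Npy, coloured by genotype. The points of both panels run from lower left to upper right (r = 0.88 and 0.82).

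The library AppNLGF_p16KO 21 was far above its group in 3 of the 5 genes of GABA synthesis, transport and breakdown, and in Pvalb. Slc6a11 was at 405 CPM in it and at 206 to 238 in the other 5 of its group. Slc32a1 was at 134 CPM against 79.4 to 91.6, Abat at 403 against 304 to 325, and Pvalb at 84.5 against 37.2 to 54.7. In the same library Gabrb1 (153 CPM), Gabrb2 (101) and Gabbr2 (142) were the lowest of the group. Gad1 (355 CPM, group range 355 to 393) and Gad2 (149, against 166 to 181 in the others) were also the lowest, and Sst (206) lay inside the range of the others. Against the median of the other 5, the log2 ratio ran from -0.58 for Gabrb1 to 0.96 for Pvalb. Such a range was not particular to this library. The ratio ran from -1.15 (Gabra2, at 68.7 CPM) to 0.59 in AppNLGF_p16KO 18 and from -0.47 to 1.05 in AppNLGF_p16KO 23. The median absolute ratio was largest in AppNLGF_p16KO 21, at 0.23. In AppNLGF_p16KO 21 the summed levels of 8 astrocyte markers (2196 CPM) and of 7 oligodendrocyte markers (3710 CPM) were the highest of the 23 libraries. Those of dentate granule cells (195 CPM) and neocortical neurons (176 CPM) were the lowest. The most abundant astrocyte marker, Slc1a3, went the other way, at 701 CPM beside the lowest value of 688 in WT 4. The septal and striatal sums of AppNLGF_p16KO 21 were 50.3 and 186 CPM, above the medians of all libraries (33.2 and 131). Another library, AppNLGF 14, held Pvalb at 68.9 CPM against 26.0 to 37.6 and Gabrd at 43.8 against 26.3 to 29.3, and its septal marker sum of 101 CPM was the highest of all, the next being 59.1. The part of tissue makeup in these values was not tested.

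**Figure D5:**
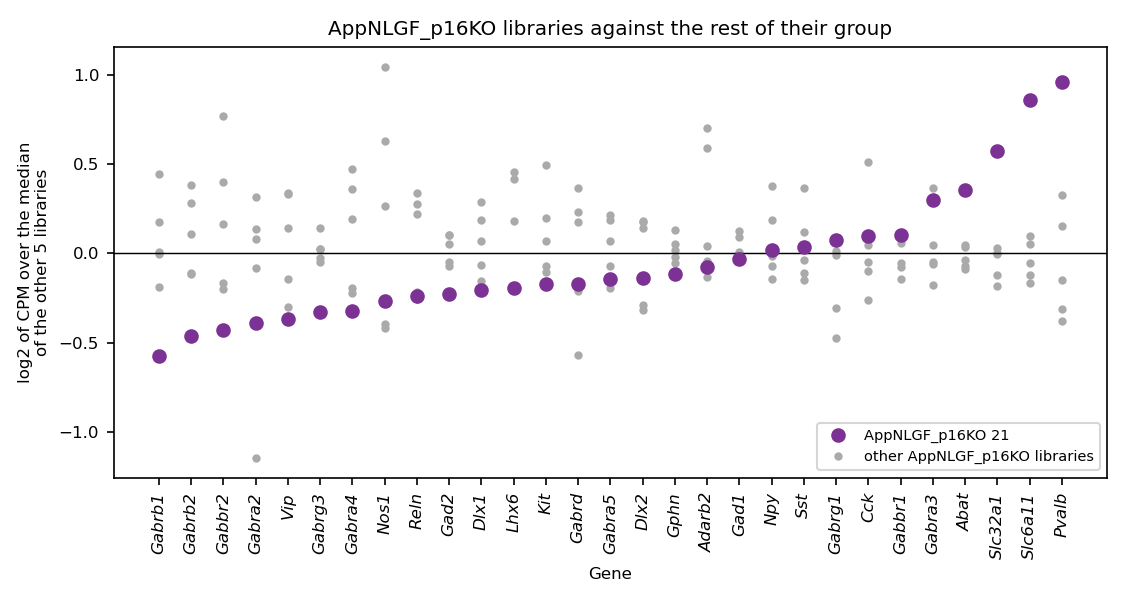
log2 ratio of each AppNLGF_p16KO library's CPM to the median of the other 5 libraries of its group, for the 29 genes. Purple points are AppNLGF_p16KO 21, which runs from -0.58 (Gabrb1) to 0.96 (Pvalb), and grey points are the other libraries. Among the grey points, AppNLGF_p16KO 18 runs from -1.15 (Gabra2) to 0.59.

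Other genes of the pathway also gave calls, all in the p16 contrasts, where 13.0% of all genes passed for the average effect. The lists were chosen with earlier results of these data known, so their counts do not test the pathway. Of 13 genes of GABA-B signalling, 4 passed (median log2 difference -0.03, and 0.00 over all genes). Phf24, a G protein interacting gene linked to GABA-B function, had an effect of -0.40 ± 0.06 (adjusted p = 0.00207), from 245 ± 17.8 CPM in WT to 180.3 ± 15.7 in p16KO. It was also the only gene of these lists past the threshold in p16KO minus WT (-0.44 ± 0.08, adjusted p = 0.0242). Like Cdkn2a, Phf24 lies on chromosome 4, and the part of this position in its calls was not tested. Kcnj6, a potassium channel opened by the receptor, fell by 0.38 (adjusted p = 0.0233) and Gnao1, the Go alpha subunit, by 0.22 (adjusted p = 0.0269), while the G protein beta subunit gene Gnb5 rose by 0.13 (adjusted p = 0.0390). Of 19 tested genes of other GABA-A subunits, receptor assembly and the inhibitory postsynapse, 3 passed (median -0.12). Gabarap and Gabarapl1, which bind GABA-A receptors and autophagosomes, rose by 0.17 (adjusted p = 0.0282) and 0.16 (adjusted p = 0.0247), and the adhesion gene Igsf9b fell by 0.27 (adjusted p = 0.0225).

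Of 18 genes of GABA uptake, precursor supply and chloride balance, 1 passed: Wnk1, a kinase of chloride cotransporters, fell by 0.27 (adjusted p = 0.0241). Of 35 other interneuron genes, 1 passed: Nr2f2, a transcription factor of interneurons of caudal origin, fell by 0.21 (adjusted p = 0.0422). Of 19 tested receptors and ligands of the peptides, reelin, Kit and nitric oxide, 1 passed: Lrp8, a reelin receptor, fell by 0.26 (adjusted p = 0.0277). In the average App effect 0 genes of these 5 lists passed by edgeR. In that contrast 3 of 7 microglial markers rose, among them Trem2 by 0.93 (adjusted p = 1.54e-10), and the summed microglial level was 291 to 342 CPM in WT and p16KO and 356 to 435 in both AppNLGF groups, which did not overlap. The part of microglial RNA in the Sst values was not tested.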

How the data were processed

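Library preparation was stranded and poly-A selected (input 350 ng, PCR cycles 12), and read length was 50 bases, single-end, per the labels' protocols. The deposited values are raw counts per gene: per the labels' protocols, the authors used Ensembl 102 and kept reads with a unique alignment and a unique gene. Trimming used cutadapt 4.2, removal of ribosomal reads Bowtie2 2.3.5 and alignment STAR 2.7.10b, per the submitters' processing notes. Those notes name GRCm38 and a later mouse build; all 29 genes had identical positions in a GRCm38 annotation (GENCODE M21), so GRCm38 positions are given. Reads carried no molecular identifiers, so PCR copies were not separated.

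From the counts, edgeR 4.0.16 in R 4.3.3 (TMM, filterByExpr with a minimum count of 10, robust quasi-likelihood F test, two-sided) fitted all 23 libraries and 4 groups in 1 model, with Benjamini-Hochberg adjustment over 19423 genes and a threshold of 0.05. The common dispersion gave a biological coefficient of variation of 15.8%. CPM used TMM library sizes, and log2 differences are given ± SE. Correlations used log2(CPM + 0.5). The number of libraries above or below counts them against the mean of the other group. Samples are taken as separate animals; p-values measure the spread between them.

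Alternatives were DESeq2 1.42.0, RLE size factors, 2 other count filters, a fit without robust dispersion, the compared groups alone, 1 surrogate variable (sva 3.50.0), a sex covariate, removal of length and GC trends, other thresholds, and omission of each library and of libraries past the submitters' distance limit. The sex covariate was the scaled log2 level of Xist in each library, because the labels give no sex. The procedure was tested on simulated data. Named are all 29 genes and, from each list of related genes, those past the threshold in any contrast, at most 4 per list and contrast. The genes and lists were chosen with earlier results of these data known.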

Additional observations from a re-analysis of the deposited data

Results flagged for a closer look

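Each gene's levels in each group were searched for a single library set apart by Dixon's 95% limit, which chance passes in about 1 of 20 groups. Of 116 combinations of gene and group, 11 passed, and 4 of the 11 came from AppNLGF_p16KO 21. In that library Slc6a11 was at 405 CPM, Abat at 403, Slc32a1 at 134 and Pvalb at 84.5, each above the other libraries of the group. In AppNLGF 14, Pvalb was at 68.9 CPM and Gabrd at 43.8, both above the rest. Cck was high in AppNLGF_p16KO 22 at 397 CPM, and Sst was low in p16KO 7 at 146 CPM. Among WT libraries Gad1 was high in WT 1 at 420.6 CPM, Gad2 in WT 4 at 208 CPM and Gabrg3 in WT 2 at 41.9 CPM. No interaction passed for these genes, so 0 differences between backgrounds are listed.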

How the results depend on the processing

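Of 6612 recomputed differences of the 29 genes, 6243 kept their direction and their side of the threshold, 16 passed only under the alternative, 34 no longer passed, and 319 changed sign with no call in either fit; 0 called values changed sign. The count for the average p16 effect, 2 of 29, was 0 at a threshold of 0.01, 6 at 0.1, 0 with no count filter and 0 without the library past the distance limit (AppNLGF_p16KO 21); it ran from 0 to 3 with each library left out. It was 0 without WT 2, 4 or 5, p16KO 9, 11 or 12, AppNLGF 15, 16 or 17, or AppNLGF_p16KO 18, 20 or 21, and 1 (Nos1) without WT 6, p16KO 8 or 10 or AppNLGF_p16KO 22. The count for the average App effect, 0, was 1 (Sst) at a threshold of 0.1, by DESeq2, with 1 surrogate variable and with a sex covariate, and 0 to 1 with each library left out. For AppNLGF_p16KO minus AppNLGF it was 0 to 3 with each library left out, the 3 only without AppNLGF_p16KO 23. The other 3 simple comparisons and the interaction gave 0 calls in every fit run. Of the 9 chosen pairs, 1 to 3 passed with each library left out, and 3 (with Lhx6 and Pvalb, and Gabra4 and Gabrd, added) without AppNLGF_p16KO 19. The causes of these changes were not tested. No paired analysis was possible because the groups share no replicate numbers. Depth was lowest for Dlx2, with 174 counts in 1 library.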
